A study of Mus musculus with 18 samples.

Results

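The genes described here are 32 imprinted genes outside the H19 and Peg13 loci, grouped by imprinted domain and followed through Snf2h loss and return in mouse embryonic stem (ES) cells. They were taken by symbol from a table of read counts, and all 32 symbols matched a row among the 24116 genes of that table. Every member also passed the filter on low counts that left 14901 genes to be tested. By textbook assignment 14 of them are expressed from the maternal and 18 from the paternal chromosome. The counts do not separate the alleles, so each value is the sum of both.

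Imprinted genes are transcribed mainly from the copy inherited from 1 parent. The difference is set by DNA methylation that is laid down in the germ line at imprinting control regions and is kept after fertilisation by zinc finger proteins that bind the methylated copy and recruit a repressive complex. Many of the encoded proteins and long noncoding RNAs act in growth of the embryo and placenta, and ES cells are known to lose or gain imprints in culture. The Smarca5 gene encodes Snf2h, a motor protein of the ISWI family whose complexes slide and space nucleosomes.

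Polyadenylated RNA was sequenced from ES cells of the strain 129S6/SvEvTac in medium with serum and LIF. There were 8 libraries of wild-type cells (wt), 5 of cells in which Snf2h was knocked out (ko), 3 of ko cells given back wild-type Snf2h (addbackWt) and 2 of ko cells given Snf2h with a mutated ATPase (addbackMut, replicates 1 and 3). Both add-backs were made in the ko, so all groups except wild type lack the endogenous protein. Cells grew on gelatin, with ko and addbackMut named as exceptions that were kept on mouse embryonic fibroblast (MEF) feeders in at least their early passages after thawing. The labels do not say how many clones the ko stands for, or which libraries came from separate cultures, so p-values here reflect only the spread between these samples, which may be technical.

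Smarca5 was at 185.1 ± 29.1 CPM (the usual depth-scaled count, with library sizes adjusted by TMM; SD, n = 8) in wild type, 9.36 ± 0.59 CPM (n = 5) in ko, 86.0 ± 3.63 CPM (n = 3) in addbackWt and 58.5 ± 14.3 CPM (n = 2) in addbackMut. Library totals ran from 15.3 to 36.98 M counts and fell into 3 tiers. The low tier, up to 18.99 M, held 11 libraries, namely 3 of wild type, 3 of ko and all 5 add-backs. The middle tier held replicates 1 and 2 of wild type and of ko, and the high tier held wt replicates 3 to 5. The tiers were defined from the totals and are not groups of the study. Between replicates of different tiers the chi-square per gene was 50.3 to 56.3 in ko and 31 to 69.2 in wt. Within the low and the middle tier it was 1.48 to 2.55 in these groups, but it was 15.9 to 40.8 within the high tier, 2.09 to 6.72 in addbackWt and 14 in addbackMut, so libraries of the same tier can also stand apart. The add-backs are in the low tier only. The ko effect is therefore also given within the middle tier (2 against 2 libraries) and within the low tier (3 against 3). All 8 ES cell markers, among them Pou5f1, Sox2 and Nanog, reached a mean of at least 1 CPM in every group, and their summed level was 4623 to 6686 CPM per library. In ko against wt 2 of the 8 rose and 3 fell, where 26.8% of all genes rose and 28.2% fell. The sum of the 8 was 4623 to 4664 CPM in middle-tier ko and 5517 to 5537 CPM in middle-tier wt.

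Per kilobase of exon, wild-type levels spanned more than 3 orders of magnitude. Phlda2, a growth-restraining gene of the Kcnq1 domain, had the highest mean at 131.2 ± 16.5 CPM per kb, followed by the retrotransposon-derived Peg10 at 78.8 ± 30.3 CPM per kb and the noncoding RNA Rian at 78.5 ± 10.2 CPM per kb. The last 2 did not differ beyond their spread, and the range of Peg10, 49.3 to 122.8 CPM per kb, reached into that of Phlda2. Grb10 (61.2 ± 13 CPM per kb), Snrpn (52.9 ± 6.08 CPM per kb), Mest (39.4 ± 8.15 CPM per kb) and Impact (35.7 ± 5.54 CPM per kb) came next. At the low end stood the noncoding RNAs Airn and Kcnq1ot1, each at 0.028 to 0.029 CPM per kb, Zim1 at 0.190 CPM per kb and Asb4 at 0.193 CPM per kb. The deposited table gives Kcnq1ot1 83437 exonic bases, so a low value per kb there still stands for 502 counts over the 8 wild-type libraries.

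**Figure D1:**
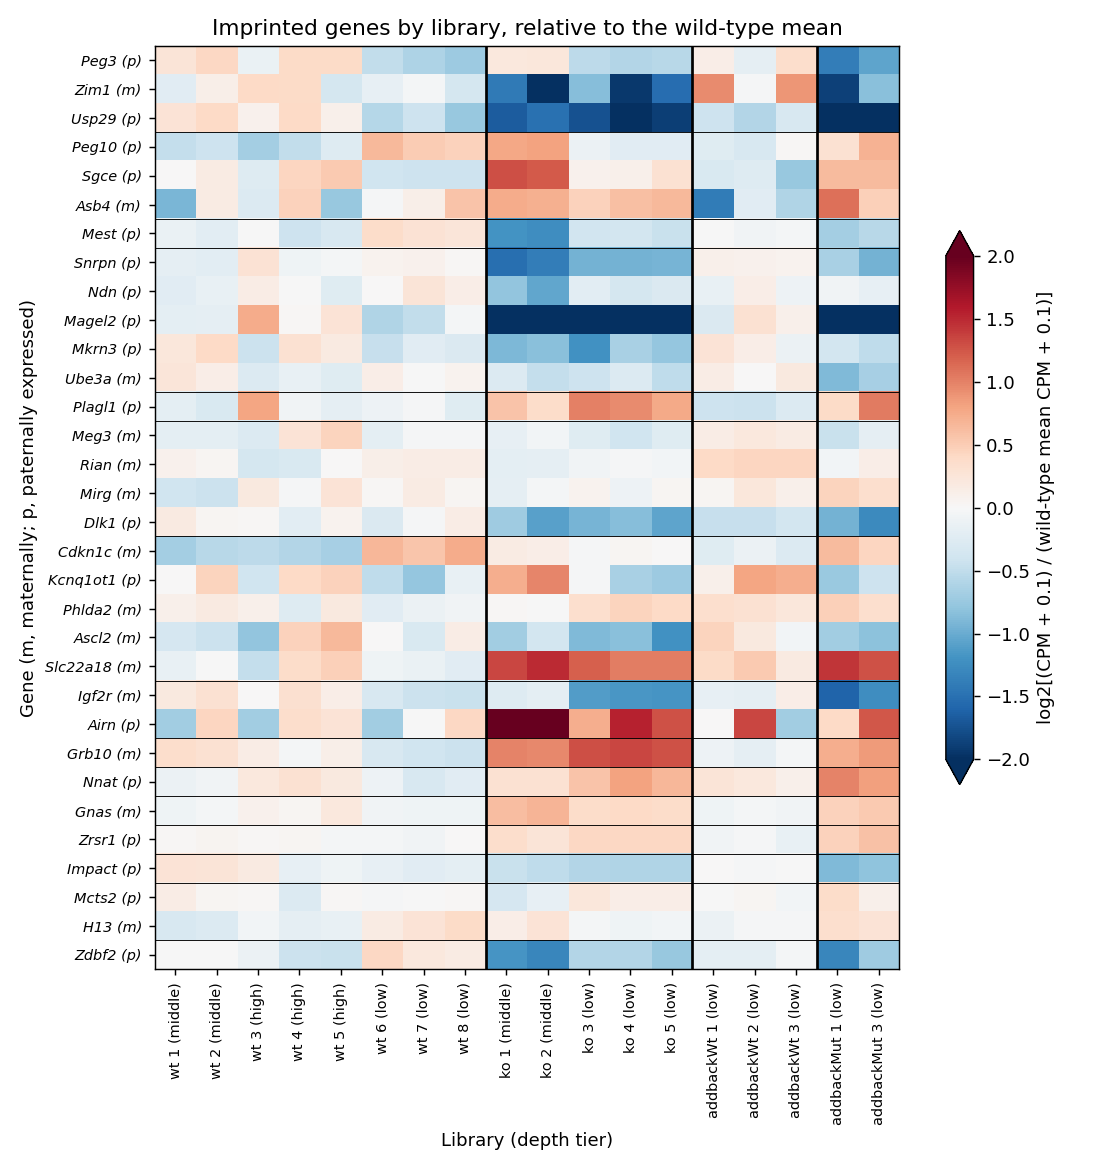
Level of each imprinted gene (rows, grouped by domain) in each of the 18 libraries (columns, with depth tier), as log2 of CPM over the wild-type mean CPM with 0.1 added to both; red is above and blue below the wild-type mean. The Magel2 row is dark blue in all 5 ko and both addbackMut libraries, and addbackWt columns are paler than the ko columns in most rows.

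Imprinted genes were both higher and lower in cells without Snf2h. With edgeR's quasi-likelihood test and Benjamini-Hochberg adjustment over all genes, 23 of the 32 passed an adjusted p of 0.05 in ko against wt, 10 higher and 13 lower. In the same comparison 55% of all genes tested passed, 26.8% higher and 28.2% lower. The median size of change was 0.611 on the log2 scale against 0.342 over all genes, and 7 members changed at least 2-fold, a step that 15.8% of all genes took. Libraries of the groups did not overlap for 14 members, against 29.5% of all genes. Of the 18 paternally expressed genes 5 rose and 9 fell (median log2 change −0.354), and of the 14 maternally expressed genes 5 rose and 4 fell (median 0.00833), beside a median of −0.00924 over all genes. No test was made of the difference between the parental sets.

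Return of wild-type Snf2h gave 22 members that differed from ko, 15 higher and 7 lower, where 45% of all genes were called, 22.5% higher and 22.4% lower. With library size alone as the scaling the split was 12 higher and 9 lower, and the share of all genes under that scaling is not given here. The median size of change was 0.544 against 0.371 over all genes, and the libraries of 24 members did not overlap, against 55.3% of all genes. Compared with wt, addbackWt differed for 1 member, the noncoding RNA Rian, where 1.6% of all genes were called. addbackMut against ko gave 0 calls by edgeR's quasi-likelihood test, where 0.322% of all genes were called; 8 members had an unadjusted p under 0.05 (15.3% of all genes), and DESeq2 called 1 (3.02% of all genes). Both add-back comparisons use the same 5 ko libraries, so their values for a gene are not independent.

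**Figure D2:**
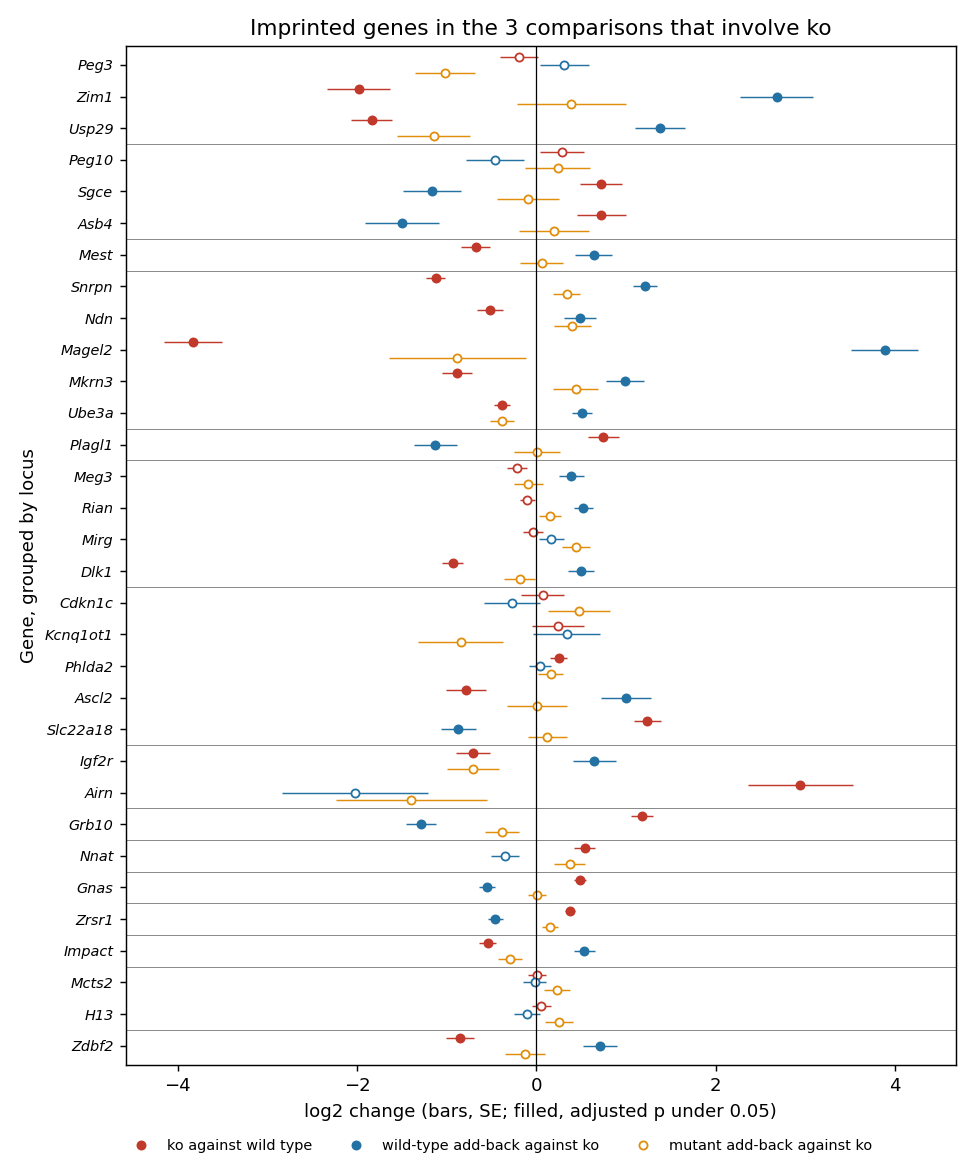
Log2 change (horizontal axis) with its standard error for each imprinted gene (vertical axis, grouped by domain) in ko against wt, addbackWt against ko and addbackMut against ko; filled points passed an adjusted p of 0.05. Magel2 lies at −3.83, 3.88 and −0.88 in the 3 comparisons, and no addbackMut point is filled.

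In the Snrpn-Magel2 domain of chromosome 7, the region whose human counterpart underlies Prader-Willi and Angelman syndromes, all 5 members fell in ko and rose in addbackWt. Magel2 (chr7:62376979-62381640, GRCm38), which encodes a MAGE protein that works with ubiquitin ligases, had the largest fall of all 32 genes. Its wild-type libraries ran from 1.53 to 4.04 CPM with a median of 2.19. The ko libraries held 0.0788, 0.193, 0.226, 0.106 and 0.232 CPM, which is 17 counts in all. In addbackWt Magel2 was at 1.92, 2.95 and 2.56 CPM, and in addbackMut at 0.115 and 0.0569 CPM, or 3 counts in all. Every ko and addbackMut library lay below every wt and addbackWt library. The change was −3.83 ± 0.32 (SE) on the log2 scale in ko against wt, 14.2-fold, with an adjusted p of 1.6e-08, and 3.88 ± 0.37 in addbackWt against ko (adjusted p = 1.8e-07). Within the tiers the ko effect was −3.86 ± 0.45 (middle) and −3.26 ± 0.40 (low). After scaling by library size, addbackWt over addbackMut (116 against 3 summed counts) gave a ratio of 28.9 (95% exact interval 9.65 to 142, counting error only).

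Snrpn (chr7:59982495-60450177), which encodes a spliceosome protein and starts at the imprinting centre of the domain, is expressed far more strongly. Wild-type libraries held 134.5 to 191.0 CPM (median 155.1), and ko libraries 55.1, 59.8, 81.1, 80.9 and 82.1 CPM. addbackWt stood at 168, 165 and 164 CPM, and addbackMut at 99.7 and 81.3 CPM. All ko libraries were below all wild-type libraries, and addbackWt fell inside the wild-type range. The log2 change was −1.12 ± 0.11 in ko against wt (2.18-fold, adjusted p = 9.1e-08) and 1.21 ± 0.13 in addbackWt against ko (adjusted p = 7.8e-07). The middle and low tiers gave −1.24 ± 0.10 and −0.99 ± 0.083. Snrpn shares its transcript with Snurf, whose counts were nearly the same (156.0 ± 18.0 CPM in wild type and 71.8 ± 13.2 CPM in ko), so the 2 rows are not separate measurements.

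The other members of the domain moved less. Mkrn3, a makorin ring finger gene known for restraining puberty, fell from 5.52 ± 1.34 CPM (n = 8) to 3.00 ± 0.44 CPM (n = 5; log2 change −0.89 ± 0.17, adjusted p = 0.00027), with no overlap between the groups, and stood at 5.93 ± 0.83 CPM in addbackWt. Its addbackMut libraries, at 4.25 and 3.87 CPM, were above all ko libraries, a difference that did not pass (0.44 ± 0.25, adjusted p = 0.4). Ndn, the MAGE gene encoding necdin, fell from 7.57 ± 0.97 to 5.32 ± 1.27 CPM (−0.51 ± 0.14, adjusted p = 0.005), and 1 ko library, at 6.55 CPM, overlapped the wild-type range. Its rise in addbackWt to 7.41 ± 0.79 CPM (adjusted p = 0.035) was lost without any of 5 single libraries, ko replicates 1 or 2 or any add-back replicate, with adjusted p-values of 0.053 to 0.15, and within the low tier it was 0.26 ± 0.11 (adjusted p = 0.051). Ndn in addbackMut, at 7.18 and 6.77 CPM, was also above all ko libraries without passing the test (0.40 ± 0.21, adjusted p = 0.36), and its difference from addbackWt did not pass (adjusted p = 0.8). Ube3a, the ubiquitin ligase gene of Angelman syndrome, is imprinted in neurons and the maternally expressed member here. It fell from 98.96 ± 12.8 to 75.8 ± 5.79 CPM (−0.38 ± 0.088, adjusted p = 0.0012) and was at 107.9 ± 6.65 CPM in addbackWt. In addbackMut Ube3a was at 53.8 and 62.5 CPM, below all 5 ko libraries (69.7 to 82.0 CPM), with a difference that did not pass the test (−0.38 ± 0.13, adjusted p = 0.19) over all libraries and did within the low tier (−0.37 ± 0.079, adjusted p = 0.0023). Exons of Ube3a share 16.5% of their bases with Snhg14, which lies on the opposite strand and itself fell from 36.97 ± 5.89 to 16.3 ± 3.84 CPM. The libraries were stranded, but the strand setting of the counting is not given in the sources used here, so reads of such a pair may not be separated.

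Ndn and Ube3a also fell in ko, but only the stretches before the start sites of 3 other genes of this domain are shown. They are from RefSeq on GRCm38.p6, the C57BL/6J reference and not the strain of these cells, and read 5′ to 3′ on the strand of the gene. Each is the 250 bases before a start, with every CpG, the dinucleotide that carries the imprint, in capitals. Snrpn has 4 annotated starts with a window and Grb10 has 2. For Snrpn the most downstream start was taken, far inside the gene interval given above, and for Grb10 the most upstream. Grb10, which rose in ko and is described further on, is added as a stretch with many CpGs.
Snrpn, chr7:60005200-60005449, minus strand: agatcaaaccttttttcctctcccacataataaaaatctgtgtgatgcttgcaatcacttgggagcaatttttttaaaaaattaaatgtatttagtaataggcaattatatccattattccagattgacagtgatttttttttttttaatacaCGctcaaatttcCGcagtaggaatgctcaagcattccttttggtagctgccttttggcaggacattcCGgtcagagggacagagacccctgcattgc
Magel2, chr7:62376729-62376978, plus strand: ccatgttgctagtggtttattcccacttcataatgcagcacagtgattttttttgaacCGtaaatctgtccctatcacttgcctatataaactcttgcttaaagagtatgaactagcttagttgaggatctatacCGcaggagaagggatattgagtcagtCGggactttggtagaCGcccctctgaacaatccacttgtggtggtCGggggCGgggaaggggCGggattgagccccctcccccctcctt
Mkrn3, chr7:62420154-62420403, minus strand: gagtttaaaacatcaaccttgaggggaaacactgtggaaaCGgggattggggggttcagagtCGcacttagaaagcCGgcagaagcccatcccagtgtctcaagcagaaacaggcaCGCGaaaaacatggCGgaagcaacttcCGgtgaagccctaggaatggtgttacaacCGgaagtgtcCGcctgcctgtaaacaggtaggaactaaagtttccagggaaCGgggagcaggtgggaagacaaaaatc
Grb10, chr11:12037421-12037670, minus strand: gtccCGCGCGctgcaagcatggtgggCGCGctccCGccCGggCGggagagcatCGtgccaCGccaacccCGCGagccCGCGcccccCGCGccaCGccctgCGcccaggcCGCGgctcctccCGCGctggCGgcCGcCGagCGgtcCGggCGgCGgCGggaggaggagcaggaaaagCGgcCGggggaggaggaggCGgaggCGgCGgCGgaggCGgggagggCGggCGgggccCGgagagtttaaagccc
Before the Snrpn start there were 3 CpGs at a GC content of 36.8%, before Magel2 7 and before Mkrn3 10, while the Grb10 stretch held 40 at a GC content of 81.2%.

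RefSeq promoter windows, 250 bases before to 50 after a start, were at hand for 28 of the 32 members, 40 windows in all. A member window held a median of 14 CpGs, against 7 over all 32851 windows. The letters TGCCGC on either strand, the hexamer read by the imprint-keeping protein ZFP57, were present in 10 member windows (25%) of 9 genes, Zdbf2, Mcts2, Nnat, Mest, Zim1, Snrpn, Plagl1, Grb10 and Meg3, against 11.6% of all windows. Mest was counted with 2 windows that share nearly all their bases. The hexamer contains a CpG, and the windows compared were not matched for CpG number, so the shares do not measure enrichment of the hexamer itself. In the Snrpn window that held it, of the start shown above, the hexamer lay within the 50 bases after the start. GCCATNTT, the YY1 motif, was in 5% of member windows, those of Ube3a and Mkrn3, against 6.05% of all. The NRF1 motif was in 1 window, of Nnat (2.5% against 0.971%). A core of the CTCF motif was in 0 member windows and in 0.0365% of all. All letters were searched on both strands. A match describes these windows only, and none was related to a change in expression.

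**Figure D3:**
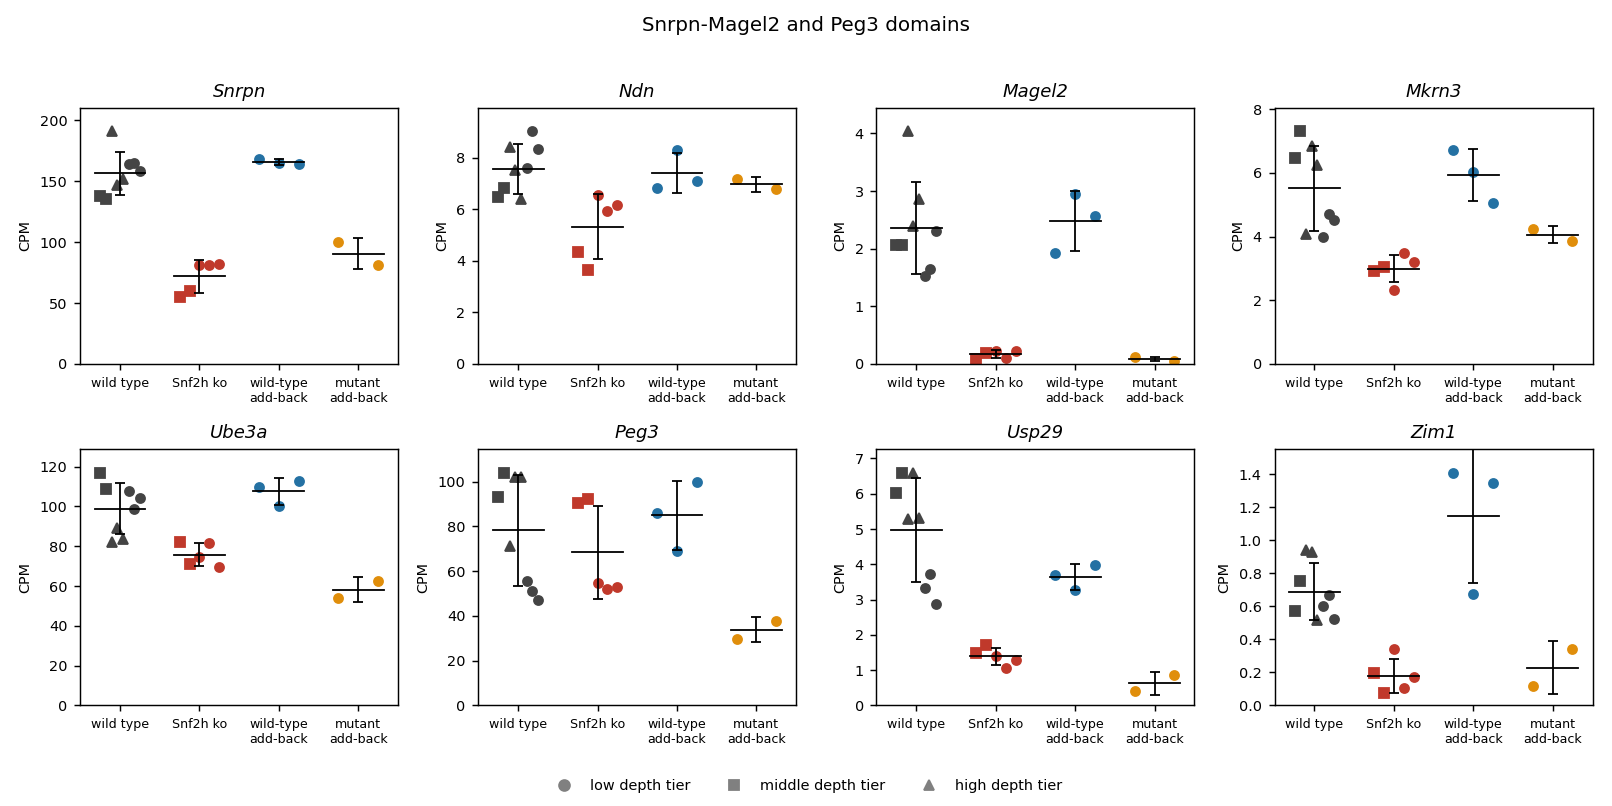
CPM (vertical axis) of the genes of the Snrpn-Magel2 and Peg3 domains in each library by group; symbols give the depth tier, horizontal lines the mean and bars the SD (n = 8, 5, 3 and 2). For Magel2, Snrpn, Mkrn3, Usp29 and Zim1 all ko points lie below all wild-type points, whereas Peg3 splits by tier in both groups.

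The Peg3 domain, also on chromosome 7, held the next largest falls, but not in Peg3 itself. Usp29 (chr7:6730559-6967220), which encodes a ubiquitin-specific protease and is transcribed away from Peg3, had wild-type libraries of 2.89 to 6.60 CPM (median 5.31) and ko libraries of 1.5, 1.7, 1.41, 1.06 and 1.28 CPM. addbackWt was at 3.70, 3.26 and 3.98 CPM and addbackMut at 0.402 and 0.854 CPM. No ko or addbackMut library reached the lowest wild-type library. The log2 change was −1.84 ± 0.23 in ko against wt (3.57-fold, adjusted p = 2.1e-06), with −1.98 ± 0.21 (middle tier) and −1.41 ± 0.21 (low tier). It was 1.38 ± 0.28 in addbackWt against ko (adjusted p = 0.00061). In addbackMut against ko it was −1.15 ± 0.40 (adjusted p = 0.21), and within the low tier −0.98 ± 0.33 (adjusted p = 0.037). Exons of Usp29 share 32.3% of their bases with Zim3 on the opposite strand, which was below the filter and had a mean of 0.325 CPM in wild type.

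Zim1 (chr7:6674444-6696540), a maternally expressed zinc finger gene next to Peg3, was rare. Its wild-type libraries ran from 0.516 to 0.939 CPM (median 0.636), the ko libraries held 0.197, 0.0773, 0.339, 0.106 and 0.174 CPM, or 18 counts in all, and addbackMut held 0.115 and 0.341 CPM. addbackWt, at 1.41, 0.677 and 1.35 CPM, had 2 libraries above every wild-type library. Ko against wt gave −1.98 ± 0.35 (3.94-fold, adjusted p = 0.00011) and addbackWt against ko 2.68 ± 0.41 (adjusted p = 3.8e-05).

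Peg3 encodes a large zinc finger protein of the growing embryo and shares a bidirectional promoter with Usp29. The 96 bases between their annotated ends, plus strand with CpGs in capitals, are shown because Usp29 was called in ko against wt and Peg3 was not. No test compared these neighbours with each other.
Peg3-Usp29, chr7:6730463-6730558: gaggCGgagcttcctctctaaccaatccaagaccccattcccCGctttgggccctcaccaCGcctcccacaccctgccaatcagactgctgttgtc
Peg3 was at 78.2 ± 24.6 CPM in wild type and 68.4 ± 20.9 CPM in ko, and the change of −0.19 ± 0.21 did not pass the test (adjusted p = 0.46), with −0.11 ± 0.16 and 0.051 ± 0.14 in the middle and low tiers. In these groups its level split by tier: low-tier wild-type libraries held 47.3 to 55.4 CPM and the others 71.1 to 104 CPM, and low-tier ko libraries 52.0 to 54.5 CPM against 90.5 and 92.0 CPM in the middle tier. addbackWt, also in the low tier, held 85.9, 69.2 and 100 CPM, which within that tier was above ko (0.68 ± 0.12, adjusted p = 0.00021) and wt (0.73 ± 0.12, adjusted p = 0.00043). In addbackMut Peg3 stood at 29.9 and 37.7 CPM, lower than every other library. Against ko this was −1.02 ± 0.34 (adjusted p = 0.18) over all libraries and −0.65 ± 0.14 (adjusted p = 0.0056) within the low tier, and DESeq2 called it at an adjusted p of 0.042. addbackWt exceeded addbackMut by 1.33 ± 0.36 (adjusted p = 0.0077), a call lost without addbackMut replicate 1 (adjusted p = 0.095).

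In the Dlk1-Meg3 domain of chromosome 12, Dlk1 was the member called in ko against wt over all libraries. Dlk1, the paternally expressed gene of a transmembrane growth regulator related to Notch ligands, fell from 6.74 ± 0.76 CPM in wild type, with a range of 5.47 to 7.64 CPM, to 3.52 ± 0.38 CPM in ko, with a range of 3.13 to 4.06 CPM. The groups did not overlap, and the change was −0.93 ± 0.12 (adjusted p = 2.4e-06), close in the 2 tiers (−1.02 ± 0.17 and −0.91 ± 0.15). In addbackWt Dlk1 rose to 4.97 ± 0.19 CPM (0.50 ± 0.15, adjusted p = 0.011), which was still below every wild-type library. That gap of −0.44 ± 0.14 to wild type did not pass the test over all libraries (adjusted p = 0.13) and did within the low tier (−0.39 ± 0.13, adjusted p = 0.03). addbackMut libraries held 3.45 and 2.73 CPM. Of the other protein-coding genes of the domain, both named after their values were seen, Dio3, a thyroid hormone deiodinase gene, rose in ko from 1.39 ± 0.38 to 3.34 ± 0.77 CPM (1.28 ± 0.20, adjusted p = 2.6e-05), and Begain was not called (−0.38 ± 0.23, adjusted p = 0.16).

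Meg3, Rian and Mirg are maternally expressed noncoding RNAs that host small nucleolar and micro RNAs, and none passed the test in ko against wt over all libraries. Their levels were 281.5 ± 53.8, 313.4 ± 40.9 and 24.1 ± 4.13 CPM in wild type and 242.4 ± 20.97, 291.9 ± 16.1 and 23.5 ± 1.70 CPM in ko. Within the tiers Rian was lower in ko (−0.25 ± 0.088 and −0.19 ± 0.073, adjusted p = 0.018 and 0.029). It reached 415, 421 and 423 CPM in addbackWt, above all wild-type libraries (246 to 349 CPM) and all ko libraries (273 to 308 CPM). Rian there exceeded ko by 0.52 ± 0.11 (adjusted p = 0.00064) and wild type by 0.42 ± 0.098 (adjusted p = 0.033), the latter a call lost without any 1 of the 3 add-back libraries (adjusted p = 0.16 to 0.18). Meg3 was 0.39 ± 0.14 above ko there (adjusted p = 0.028), which was lost without ko replicate 4 or any add-back replicate (adjusted p = 0.06 to 0.085).

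The maternally expressed genes of the Kcnq1 domain of chromosome 7 did not move together. Slc22a18 (chr7:143473726-143499334), which encodes an organic cation transporter-like protein, had wild-type libraries of 3.44 to 6.81 CPM (median 4.47) and ko libraries of 12.4, 13.8, 11.2, 9.95 and 9.94 CPM. addbackWt libraries held 6.32, 7.01 and 5.53 CPM and addbackMut libraries 13.3 and 11.8 CPM. Ko and addbackMut lay above all the others without overlap. The change was 1.24 ± 0.15 (2.36-fold, adjusted p = 1.2e-06) in ko against wt, with 1.51 ± 0.21 and 1.25 ± 0.18 in the middle and low tiers, and −0.87 ± 0.20 in addbackWt against ko (adjusted p = 0.0017).

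Ascl2, a basic helix-loop-helix factor of the trophoblast lineage, went the other way, from 5.09 ± 1.76 CPM in wild type to 2.94 ± 0.64 CPM in ko (−0.79 ± 0.23, adjusted p = 0.0062). The groups overlapped, and the fall was seen within the low tier (−0.96 ± 0.30, adjusted p = 0.01) and did not pass in the middle tier (−0.15 ± 0.33, adjusted p = 0.72). Phlda2 was at 96.7 ± 12.1 CPM in wild type and 115.0 ± 16.7 CPM in ko (0.25 ± 0.095, adjusted p = 0.033), a call lost without wt replicate 4, 6, 7 or 8 or ko replicate 3, 4 or 5 (adjusted p = 0.051 to 0.1). Within the low tier it was 0.53 ± 0.087 and within the middle tier −0.14 ± 0.10, and the difference between tiers passed the test (adjusted p = 0.00087). Cdkn1c, which encodes the cell cycle inhibitor p57, was at 47.8 ± 22.7 and 49.96 ± 2.87 CPM with no call in the pooled comparison. The paternally expressed noncoding RNA Kcnq1ot1, whose transcription silences the domain, was at 2.37 ± 0.78 CPM in wild type and 2.79 ± 1.51 CPM in ko, and its change of 0.24 ± 0.29 did not pass (adjusted p = 0.51). Kcnq1 itself, from a list of other imprinted genes, was a rare transcript that rose from 0.604 ± 0.15 to 3.83 ± 1.06 CPM in ko (2.66 ± 0.21, adjusted p = 5.9e-09).

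Igf2r and Airn, the receptor gene that clears insulin-like growth factor 2 and the noncoding RNA that silences it, overlap on opposite strands of chromosome 17. Igf2r fell from 182.6 ± 39.6 to 111.8 ± 40.7 CPM in ko (−0.71 ± 0.19, adjusted p = 0.0043). Both groups split by tier, with middle-tier ko libraries at 153 and 159 CPM above the low-tier wild-type libraries (134 to 146 CPM), yet within each tier ko was lower (−0.48 ± 0.11 and −0.75 ± 0.095). In addbackWt Igf2r was at 162 to 201 CPM, and its rise over ko (0.65 ± 0.24, adjusted p = 0.032) was lost without ko replicate 3, 4 or 5 or any add-back replicate (adjusted p = 0.053 to 0.13). In addbackMut Igf2r was at 59.9 and 77.2 CPM, below all other libraries, and addbackWt exceeded it by 1.35 ± 0.32 (adjusted p = 0.0026; without addbackMut replicate 1, adjusted p = 0.054). Airn (chr17:12741311-12859884) was close to absent. It had 13 counts over the 8 wild-type libraries, 3 of them at 0, and 59 counts over the 5 ko libraries, which held 0.63, 1.08, 0.169, 0.371 and 0.291 CPM. The fitted rise was 2.94 ± 0.59 (adjusted p = 0.00037), and with so few counts its size depends on the prior of the fit. Its call held in the middle tier (adjusted p = 0.00054) and did not pass in the low tier (adjusted p = 0.063).

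In the Peg10-Sgce domain of chromosome 6, Sgce and Asb4 rose in ko over all libraries and fell in addbackWt. Sgce (chr6:4674350-4747204), which encodes epsilon-sarcoglycan, had wild-type libraries of 3.36 to 6.49 CPM (median 4.14), ko libraries of 11.2, 10.7, 4.8, 4.82 and 5.58 CPM, addbackWt libraries of 3.64, 3.75 and 2.63 CPM and addbackMut libraries of 7.01 and 7.0 CPM. Only the 2 middle-tier ko libraries exceeded the whole wild-type range. Ko against wt gave 0.72 ± 0.23 (adjusted p = 0.013), lost without ko replicate 1 or 2 (adjusted p = 0.067 and 0.061), with tier values of 1.19 ± 0.19 (middle) and 0.59 ± 0.19 (low). addbackWt against ko gave −1.16 ± 0.32 (2.24-fold, adjusted p = 0.0069) over all libraries and −0.59 ± 0.14 (adjusted p = 0.0012) within the low tier.

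Asb4 (chr6:5383386-5433022), a maternally expressed adaptor of ubiquitin ligases, was rare, with wild-type libraries of 0.307 to 1.04 CPM (median 0.694) and ko libraries of 1.18, 1.16, 0.96, 1.06 and 1.1 CPM. addbackWt held 0.192, 0.554 and 0.404 CPM, below all ko libraries, and addbackMut 1.55 and 0.968 CPM. The fall in addbackWt was −1.50 ± 0.41 (2.83-fold, adjusted p = 0.0065), whereas the rise in ko (0.73 ± 0.27, adjusted p = 0.029) was lost without wt replicate 3 or 5 or ko replicate 1 or 2 (adjusted p = 0.05 to 0.059). The ko effect on Asb4 was 1.11 ± 0.43 in the middle tier (adjusted p = 0.031) and 0.36 ± 0.38 in the low tier (adjusted p = 0.42). Peg10, needed for the placenta, was at 522.0 ± 200.5 CPM in wild type and 634.7 ± 244.4 CPM in ko, and was not called.

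Grb10 (chr11:11930499-12037428), which encodes an adaptor that restrains insulin and growth factor signalling, had the most abundant transcripts among the genes that rose at least 2-fold in ko. Wild-type libraries held 264.8 to 454.4 CPM (median 367.6), ko libraries 708, 696, 868, 898 and 863 CPM, addbackWt 331, 314 and 345 CPM and addbackMut 592 and 641 CPM. Ko lay above all other libraries, addbackMut lay between ko and the rest, and addbackWt was inside the wild-type range. Low-tier wild type held 265 to 286 CPM, and within that tier addbackWt was higher (0.27 ± 0.048, adjusted p = 0.00027). The groups with high Grb10 were also those with the higher summed level of fibroblast markers (277.3 to 380.7 CPM in ko and addbackMut, 97.4 to 163.3 CPM in the others), whose part in the result was not tested. The log2 change of Grb10 was 1.18 ± 0.12 (2.27-fold, adjusted p = 2.5e-07) in ko against wt and −1.29 ± 0.17 in addbackWt against ko (adjusted p = 7.3e-06). The rise was larger in the low tier (1.68 ± 0.060) than in the middle tier (0.65 ± 0.072), a difference of −1.03 ± 0.093 that passed the test (adjusted p = 4.7e-08). addbackMut against ko gave −0.39 ± 0.19 (adjusted p = 0.33), and within the low tier −0.51 ± 0.054 (adjusted p = 2.2e-06).

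Plagl1 (chr10:13090832-13131694), a zinc finger factor that regulates other imprinted genes, had wild-type libraries of 7.11 to 15.3 CPM (median 7.93) and ko libraries of 13.1, 11.3, 17.8, 17.0 and 14.9 CPM. In addbackWt it was at 6.58, 6.46 and 7.28 CPM and in addbackMut at 11.5 and 18.2 CPM. The library wt replicate 3, at 15.3 CPM, was the only wild-type library inside the ko range. The rise in ko was 0.75 ± 0.17 (1.68-fold, adjusted p = 0.0014) and the fall in addbackWt −1.13 ± 0.24 (2.18-fold, adjusted p = 0.00095). Against addbackMut addbackWt was lower by a log2 change of −1.13 ± 0.29 (adjusted p = 0.0045), which became −0.75 without addbackMut replicate 3 (adjusted p = 0.11).

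Smaller rises were found in Gnas, Nnat and Zrsr1. Gnas, the complex locus of the stimulatory G protein alpha subunit, rose from 251.0 ± 19.6 to 352.2 ± 37.6 CPM (0.49 ± 0.068, adjusted p = 8.2e-06) with no overlap, and was at 240.3 ± 3.14 CPM in addbackWt and 353.5 ± 10.9 CPM in addbackMut. Its row adds up maternally, paternally and biallelically expressed transcripts and shares exonic bases with antisense neighbours (14.2% with Gm20721, 9.52% with Nespas). Nnat, a small membrane protein gene of neurons, rose from 10.5 ± 1.67 to 15.3 ± 2.39 CPM (0.54 ± 0.12, adjusted p = 0.00074), and the highest wild-type library, at 13 CPM, lay just above the lowest ko library, at 12.9 CPM. Zrsr1 rose from 17.0 ± 0.53 to 22.1 ± 1.04 CPM (0.37 ± 0.061, adjusted p = 4.4e-05). It is a retrocopy of the splicing gene Zrsr2, as Mcts2 is of Mcts1, so counts of both may depend on how reads shared with the parent gene were assigned.

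Mest, Zdbf2 and Impact, each paternally expressed, fell. Mest, a mesoderm-specific hydrolase gene, went from 109.5 ± 22.6 to 68.6 ± 19.7 CPM (−0.68 ± 0.16, adjusted p = 0.002), Zdbf2, whose imprint is switched early in development, from 109.0 ± 21.9 to 60.4 ± 13.4 CPM (−0.85 ± 0.16, adjusted p = 0.00015), and Impact, a regulator of translation under amino acid stress, from 122.6 ± 19.0 to 84.0 ± 4.21 CPM (−0.55 ± 0.091, adjusted p = 5.8e-05). All 3 were called in both tiers, and in addbackWt they stood at 106.6 ± 2.38, 98.6 ± 6.02 and 121.8 ± 1.04 CPM. Within the low tier addbackWt was below wild type for Mest (−0.34 ± 0.051, adjusted p = 5.3e-05) and Zdbf2 (−0.41 ± 0.12, adjusted p = 0.02). For Impact it was above wild type there (0.18 ± 0.045, adjusted p = 0.0043). addbackMut held 66.8 and 70.2 CPM of Impact, below all ko libraries (80.7 to 90.5 CPM). Exons of Mest share 32.9% of their bases with Copg2 on the opposite strand, which rose in ko from 81.7 ± 13.5 to 98.8 ± 11 CPM. H13, a signal peptide peptidase gene, and Mcts2 inside its intron were at 48.3 ± 8.96 and 14.1 ± 1.13 CPM in wild type and 50.1 ± 5.42 and 14.3 ± 2.33 CPM in ko, with no call in the pooled comparison.

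**Figure D4:**
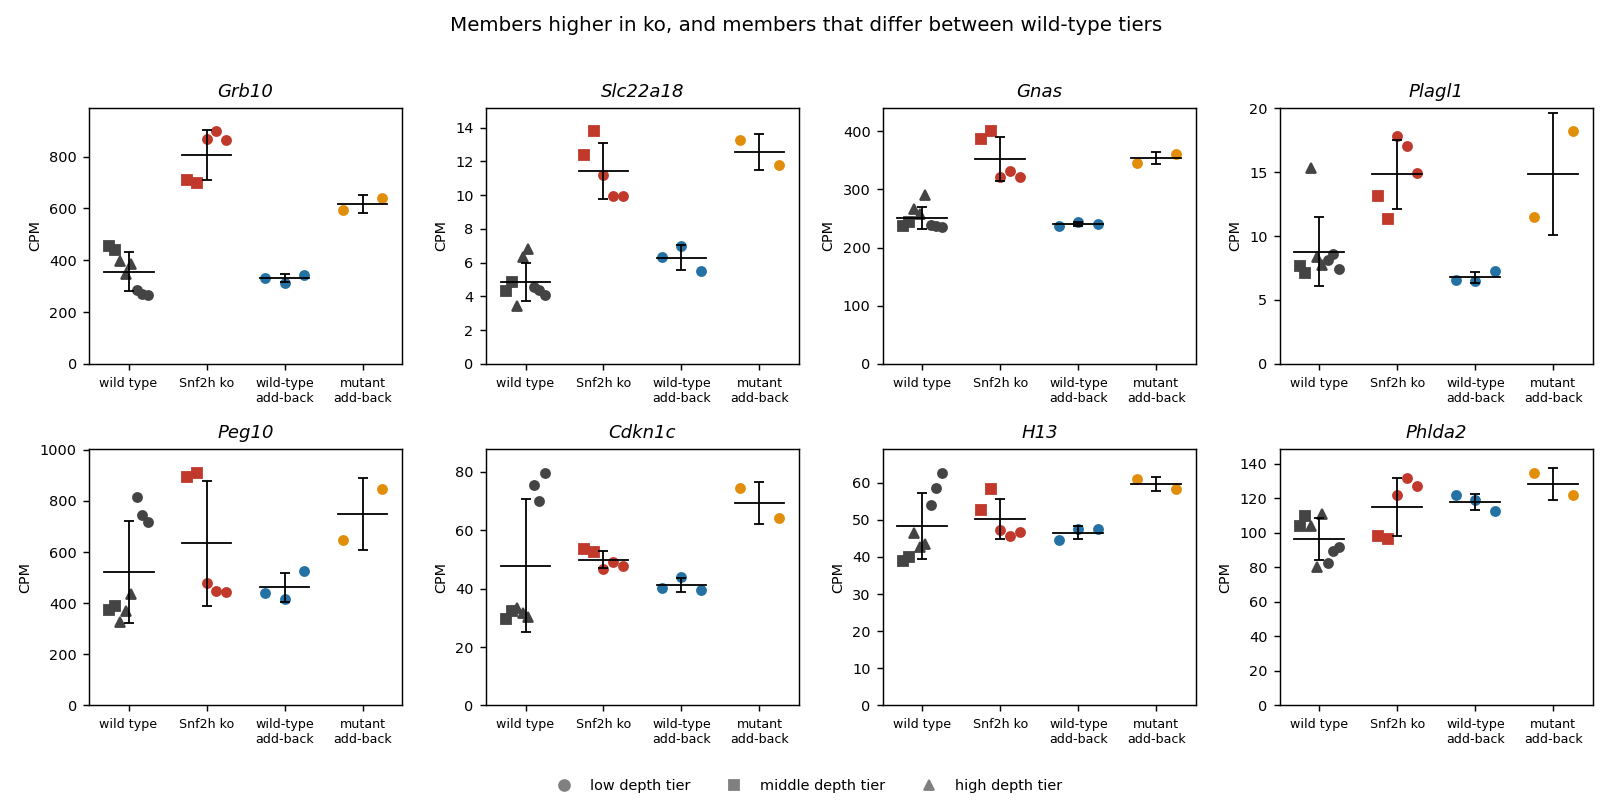
CPM (vertical axis) in each library by group for 4 genes that rose in ko (upper row) and 4 whose ko effect differed between tiers (lower row); symbols give the depth tier, lines the mean and bars the SD. Ko points of Grb10, Slc22a18 and Gnas lie above all wild-type points, while Peg10 and Cdkn1c in wild type are higher in the low tier than in the other tiers.

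Some imprinted genes differed between tiers as much as between genotypes. In a fit with a mean for each group in each tier, the low-tier and middle-tier wild-type libraries differed for 14 of the 32 genes (43.5% of all genes) and those of ko for 16 (43.8% of all genes). Ko against wt was called for 27 in the middle tier (61.8% of all genes) and for 25 in the low tier (60.1% of all genes). Called in both with the same sign were 20, and the matching share of all genes was not computed, so that count cannot be judged against it. The ko effect itself differed between tiers for 11 members, against 26.8% of all genes. Peg10, Cdkn1c and H13 had opposite calls. Peg10 was at 375 and 390 CPM in middle-tier wild type and 893 and 911 CPM in middle-tier ko (1.24 ± 0.13, adjusted p = 9.4e-08), but at 719 to 814 CPM in low-tier wild type and 444 to 480 CPM in low-tier ko (−0.73 ± 0.10, adjusted p = 5.8e-06). Cdkn1c gave 0.77 ± 0.087 and −0.64 ± 0.070, and H13 0.50 ± 0.079 and −0.33 ± 0.066. For these 3 genes, and for Phlda2, Mcts2 and Mirg, whose tier effects also differed by the test and in sign, the pooled value has no single direction.

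**Figure D5:**
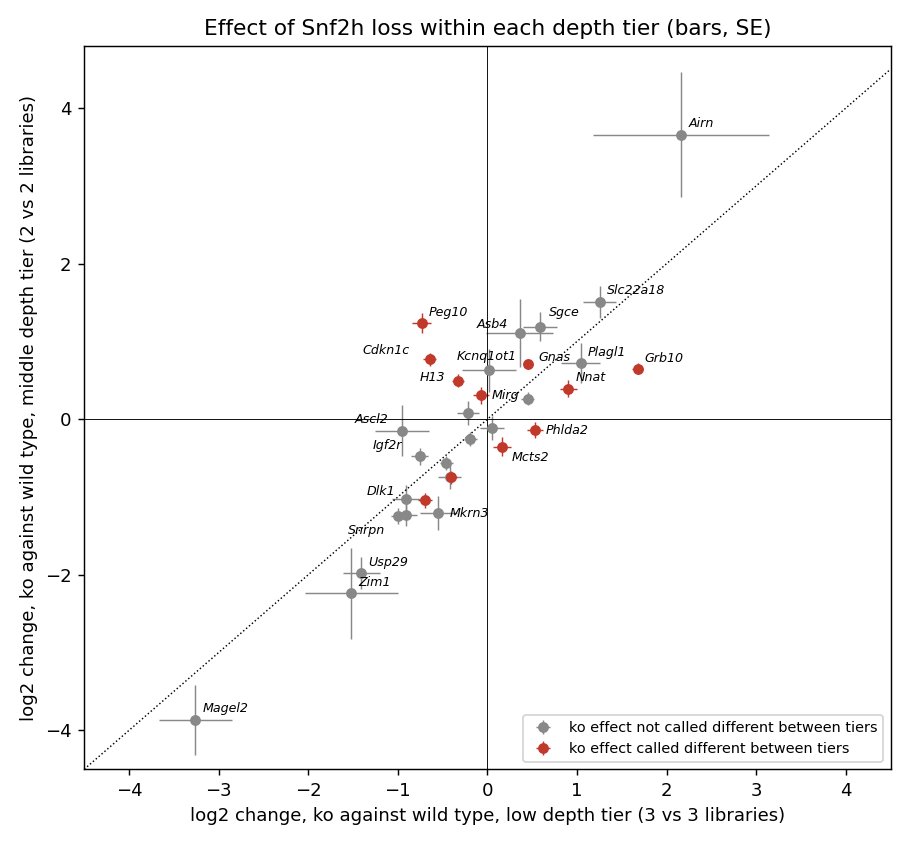
Log2 change in ko against wt within the middle tier (vertical axis, 2 against 2 libraries) and the low tier (horizontal axis, 3 against 3), with standard errors; the dotted line marks equal effects and red marks the 11 genes whose effects differed by the test. Magel2, Usp29, Zim1 and Snrpn lie on the same side in both tiers, whereas Peg10, Cdkn1c and H13 lie above 0 in the middle and below 0 in the low tier.

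addbackWt and addbackMut, which are in the same tier, differed for 21 members, 13 higher and 8 lower in addbackWt, where 37% of all genes were called, 18.6% higher and 18.4% lower. Libraries did not overlap for 29 members, against 72.5% of all genes. Beside Magel2, the largest differences above it were in Usp29 (2.53 ± 0.42, adjusted p = 0.00014) and Zim1 (2.29 ± 0.54, adjusted p = 0.0029), and those below in Asb4 (−1.70 ± 0.48, adjusted p = 0.01), Plagl1 and Sgce (−1.07 ± 0.39, adjusted p = 0.037). Without addbackMut replicate 1 the count was 11, where 19.8% of all genes were called, and Zim1, Asb4 and Sgce were among the calls lost (adjusted p = 0.064, 0.14 and 0.14). Sgce was also lost without any other library of either add-back, and Asb4 without addbackWt replicate 1 (adjusted p = 0.05). Within the low tier alone, addbackMut differed from ko for 11 of 31 members, 5 higher and 6 lower, where 25.4% of all genes were called, 12.9% higher and 12.5% lower, and addbackWt from wild type for 18 of 31, where 33% were called. Airn did not pass the filter in that fit.

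Genes that keep or set imprints were read from a list of 22, all tested. In ko 15 of them fell and 1 rose, where 28.2% of all genes fell and 26.8% rose. The median log2 change was −0.326 against −0.00924 over all genes. In addbackWt against ko 14 rose and 1 fell, where 22.5% of all genes rose and 22.4% fell. The median there was 0.48 against −0.00695. addbackMut against ko gave 0 calls over all libraries, and within the low tier 3 higher and 6 lower, where 12.9% and 12.5% of all genes were called. Zfp445, a zinc finger protein that holds imprints together with ZFP57, fell from 150.0 ± 24.7 to 62.98 ± 5.39 CPM (−1.25 ± 0.11, adjusted p = 2.8e-08) and stood at 166.3 ± 12.0 CPM in addbackWt and 65.2 ± 9.96 CPM in addbackMut. The germline paralogue of CTCF, Ctcfl, fell from 2.08 ± 0.92 to 0.0378 ± 0.023 CPM (−5.60 ± 0.53, adjusted p = 1.0e-07), with 0.515 ± 0.17 CPM in addbackWt and 0 counts in addbackMut. Dnmt3a and Dnmt3l, a DNA methyltransferase of the germ line and its cofactor, fell by log2 changes of −1.40 ± 0.20 (adjusted p = 1.5e-05) and −1.25 ± 0.19 (adjusted p = 2e-05). Dnmt3l was at 110.8 ± 21.7 CPM in ko, 254.2 ± 10.9 CPM in addbackWt and 223.4 ± 16.1 CPM in addbackMut, which exceeded ko by 1.01 ± 0.25 over all libraries (adjusted p = 0.099) and by 1.23 within the low tier (adjusted p = 6.3e-11). Arid4b, a chromatin factor at the Snrpn imprint, changed by −0.41 ± 0.066 (adjusted p = 4.8e-05), and Tet3, which oxidises methylated cytosine, by 0.60 ± 0.090 (adjusted p = 2e-05). Zfp57, named here after its values were seen because its hexamer was searched, was at 467.7 ± 171 CPM in wild type and 637.7 ± 118 CPM in ko. It did not pass over all libraries (adjusted p = 0.061). Within the middle tier Zfp57 was higher in ko (0.58, adjusted p = 6.8e-07). In the fit of the low tier alone its change was 0.10 (adjusted p = 0.064), and addbackWt there was below ko (−0.51, adjusted p = 1.8e-08).

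Of 46 other imprinted genes 34 were tested, and in ko 4 rose and 12 fell (median −0.0946), where 26.8% of all genes rose and 28.2% fell. The smallest adjusted p was that of Smoc1, a gene of a secreted calcium-binding protein, which fell from 27.1 ± 5.92 to 2.56 ± 0.45 CPM (−3.42 ± 0.17, adjusted p = 1.6e-11). It was at 10.6 ± 0.38 CPM in addbackWt and 1.34 ± 0.032 CPM in addbackMut. Tnfrsf23, a decoy receptor gene near the Kcnq1 domain, fell by a log2 change of −1.92 ± 0.22 (adjusted p = 8.9e-07). Atp10a and Snhg14, neighbours of Ube3a, changed by −1.24 ± 0.17 (adjusted p = 8.1e-06) and −1.19 ± 0.14 (adjusted p = 1.2e-06). In addbackWt Atp10a was at 24.7 ± 1.67 CPM against 20.2 ± 5.59 CPM in wild type, and Snhg14 at 52.7 ± 3.76 against 36.97 ± 5.89 CPM, differences that did not pass the test over all libraries (adjusted p = 0.51 and 0.1).

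Markers of other cell types differed between groups or between tiers. In ko over all libraries 26.8% of all genes rose and 28.2% fell, shares to set beside each list. Of 24 embryonic fibroblast markers 21 were tested, and 16 rose and 3 fell in ko (median 1.76). Their summed level was 97.4 to 163.3 CPM in wild type, 277.3 to 324.8 CPM in ko, 110.6 to 114.5 CPM in addbackWt and 313.6 to 380.7 CPM in addbackMut. Lum was at 0 in all ko libraries, Lum and Fap in both addbackMut libraries, and Postn and Fap in addbackWt. Of 15 extraembryonic endoderm markers tested, 6 rose and 0 fell in ko over all libraries. In the fit of the low tier alone 1 rose and 14 fell. The joint fit called 60.1% of all genes in that tier, in either direction. The share of all genes that fell in the fit of the low tier alone is not given here, so the 14 cannot be judged against it. The markers summed to 2555 to 2677 CPM in middle-tier wild type and 13340 to 14480 CPM in middle-tier ko. In the low tier the sums were 5215 to 5285 CPM in wild type and 3812 to 3941 CPM in ko. That order is the order of Peg10 over the same 4 sets of libraries. It is not that of Sgce, the neighbour of Peg10, whose mean was lowest in low-tier wild type (3.37 CPM). Nor is it that of Cdkn1c and H13, whose means were highest in low-tier wild type (75 and 58.4 CPM, against 52.9 and 55.6 CPM in middle-tier ko). No test was made of these orders. Trophoblast markers (3 higher and 2 lower of 11 tested) summed to 173.6 to 175.5, 406.9 to 434.9, 129.1 to 134.6 and 167.0 to 172.4 CPM in these sets, with Tpbpa at 0 in all of them, and neural markers (2 higher and 1 lower of 10 tested) to 351.5 to 519.2 CPM over the ko libraries and 428.3 to 456.1 CPM over wild type. The part of these cells in the changes of the imprinted genes was not tested, and in bulk RNA fewer cells of a type and less RNA per cell cannot be told apart.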

How the data were processed

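Counts of reads per gene for 18 libraries were analysed as the authors deposited them. Per the submitters' processing notes, bcl2fastq 2.17 and STAR were used with an mm10 build of the genome; for the counting, tool and strand setting were not stated. Groups came from the sample titles. The members and the gene lists were chosen with earlier results of these data known. The series text speaks of fewer replicates than the 8 wild-type libraries in the table.

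In R 4.3.3, genes were kept by filterByExpr with a count minimum of 10 (14901 of 24116; 3581 had 0 counts in every library). They were tested with edgeR 4.0.16 (TMM, robust quasi-likelihood test, 1 mean per group over all 18 libraries), with Benjamini-Hochberg adjustment over all genes tested and calls at an adjusted p of 0.05. The common biological coefficient of variation was 0.169. Depth tiers were split at 20 and 28 M counts, and a joint fit with a mean per group and tier gave the ko effect in each tier. Low-tier values of the other comparisons came from a fit of the low tier alone (14488 genes). CPM used TMM-scaled library sizes. Levels per kb used the exonic bases in the authors' table. Counting intervals are exact at 95%.

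Full values are given for members called in ko against wild type or in addbackWt against ko, with a log2 change of at least 1, where the higher group's mean reached 1 CPM. Up to 6 genes of each of the lists of imprint regulators and other imprinted genes are named, by smallest adjusted p with a mean of at least 1 CPM in either group. Alternatives were DESeq2 1.42.0 (size factors and Wald test), library size alone, other count filters, a tier term, single tiers, a replicate block, the compared groups alone and leaving out each library; leaving out the high-tier wild type was added after seeing the data. The fits were tested on simulated counts. Exon overlaps are from GENCODE, and promoter windows from RefSeq.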

Additional observations from a re-analysis of the deposited data

Results flagged for a closer look

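Plagl1 in wt replicate 3 was at 15.3 CPM, with the nearest other wild-type library at 8.6 CPM, a gap that was large for the range of its group by Dixon's test. Mcts2 in wt replicate 4 was at 11.7 CPM, below the nearest other wild-type library at 13.9 CPM, by the same test. Of 64 groups of libraries tested 2 stood out in this way, and chance alone flags about 1 in 20.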

How the results depend on the processing

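No paired analysis entered the results: replicate numbers are only names here, since deviations of same-numbered ko and wild-type libraries correlated at −0.246 to 0.169, and 2 of 10 libraries correlated best with their own number. With the replicate block the calls were 24 for ko against wild type, 23 for addbackWt against ko, 0 for addbackMut against ko, 21 between the add-backs and 2 for addbackWt against wild type (6.72% of all genes), and Cdkn1c in the last became 0.366. Calls of addbackMut against ko numbered 1 by the DESeq2 Wald test (3.02% of all genes), 2 with a tier term (3.22%) and 11 in the low tier alone (25.4%). Calls of addbackWt against wild type numbered 7 with a tier term (10.3% of all genes), 18 in the low tier alone (33%) and 0 with only these groups in the fit (1.44%). Leaving out 1 library at a time gave 20 to 23 calls for ko against wild type, 19 to 22 for addbackWt against ko, 11 to 18 between the add-backs and 0 to 1 for addbackWt against wild type. The 11 came with 19.8% of all genes called. The 0 came without any 1 addbackWt library, where 0.295 to 0.483% of all genes were called. For the other counts with the block or with 1 library left out the share is not given here. Those counts cannot be judged against it. In the low tier alone the signs of Peg10 (−0.735), Cdkn1c (−0.645) and H13 (−0.33) turned for ko against wild type, those of Sgce (0.469) and Mest (−0.218) for addbackMut against ko, and those of Igf2r (0.343), Grb10 (0.271) and Impact (0.183) for addbackWt against wild type. With a tier term Igf2r in the last was 0.396. In the middle tier alone Meg3 (0.108), Mirg (0.334), Phlda2 (−0.111) and Mcts2 (−0.323) turned for ko against wild type. The cause was not tested. A count minimum of 50 leaves 29 members, and other scalings moved the median of all genes by at most −0.0705. Depth limits Airn, Zim1 and Magel2 most, with 59, 18 and 17 counts over the ko libraries.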
